A study of Saccharomyces cerevisiae with 8 samples.

Results

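RNA polymerase II (RNAPII) was examined on 10 budding yeast genes whose enzymes turn pyruvate into ethanol, acetate and acetyl-CoA. They are the pyruvate decarboxylase genes PDC1, PDC5 and PDC6, the alcohol dehydrogenase genes ADH1, ADH2 and ADH3, the aldehyde dehydrogenase genes ALD4, ALD5 and ALD6, and the acetyl-CoA synthetase gene ACS2. The genes were chosen by symbol from the 6002 nuclear protein-coding open reading frames (ORFs) of the R64 (sacCer3) annotation. Results of these data were already known when they were chosen, and the high place of ALD6 in 2 of the lists was among those results. The values of all 10 are therefore given as a description, and no test was made on them.

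Pyruvate decarboxylase splits pyruvate into acetaldehyde and CO2. Alcohol dehydrogenase then reduces acetaldehyde to ethanol and regenerates the NAD+ that glycolysis consumes, which is how yeast ferments sugar even in air. A side branch, the pyruvate dehydrogenase bypass, instead oxidises acetaldehyde to acetate through aldehyde dehydrogenase and activates acetate to acetyl-CoA through acetyl-CoA synthetase, which supplies cytosolic acetyl-CoA for lipid synthesis.

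Chromatin immunoprecipitation (ChIP) with the antibody 8WG16, which recognises the largest RNAPII subunit Rpb1, was followed by sequencing in 2 strains of the W303a background. Both strains carried Tfg1, the larger of the main subunits of TFIIF, one of the general factors of RNAPII initiation, with an HA epitope tag linked to a Kluyveromyces lactis TRP1 marker. In Tfg1-HA the protein was otherwise unaltered. In Tfg1-K60,61R-HA 2 adjacent lysines were replaced by arginine, which impairs attachment of the small protein SUMO to Tfg1. This strain is also known to carry an unintended missense substitution elsewhere in Tfg1, and without a strain that has only the lysine changes their effects cannot be told apart. Cells were grown at 30 °C in synthetic complete (SC) medium to mid-log phase. Each strain had 2 RNAPII libraries and 2 libraries of input chromatin, and 1 peak list was deposited for each of the 4 RNAPII libraries. Peak lists cannot show the lysine codons, so the genotype of a library could not be checked.

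The 4 lists held 1257 peaks in Tfg1-HA replicate 1, 1171 in Tfg1-HA replicate 2, 1098 in Tfg1-K60,61R-HA replicate 1 and 894 in Tfg1-K60,61R-HA replicate 2. Values below follow this order, and the lists of the 2 strains are called HA and K60,61R. The peaks touched between 1384 and 2109 ORFs in a list. The lists hold no read counts. The study gives a nominal number of reads per sample, but the number that each library reached is not known here, and fewer bound regions and lower depth cannot be told apart. The labels and the names of the lists disagree. The names carried by the lists labelled HA replicate 2 and K60,61R replicate 1 are written in the letter case that the study uses for the other strain, while a number in the names is shared by the lists of the same label. The lower-case names, those of HA replicate 2 and K60,61R replicate 2, also hold an added letter m. The labels were kept, and differences are also given with these 2 lists exchanged. The exchanged groups are the 2 lists labelled replicate 1 and the 2 labelled replicate 2. A difference between them cannot be told apart from one between replicates. With 2 lists against 2 an exact permutation test cannot give a two-sided p below 0.333.

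All 10 genes have a single coding exon, and where they lie bears on what a peak over them can show. PDC1 (YLR044C) spans chrXII:232390-234081 on the minus strand, PDC5 (YLR134W) chrXII:410723-412414 on the plus strand and PDC6 (YGR087C) chrVII:651290-652981 on the minus strand. ADH1 (YOL086C) spans chrXV:159548-160594 on the minus strand, ADH2 (YMR303C) chrXIII:873291-874337 on the minus strand and ADH3 (YMR083W) chrXIII:434788-435915 on the plus strand. ALD4 (YOR374W) spans chrXV:1039840-1041399, ALD5 (YER073W) chrV:304030-305592 and ALD6 (YPL061W) chrXVI:432588-434090, all on the plus strand. ACS2 (YLR153C) spans chrXII:445524-447575 on the minus strand.

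ALD6 and ADH1 are shown by their start regions, since the position of the peak edge against the start codon sets them apart. Each window runs from 250 bases before the first base of the start codon to 50 bases from it, read 5′ to 3′ along the gene from the R64 reference of RefSeq. Capitals mark the start codon and each match to TATAAA, the sequence bound by the TATA-binding protein, on either strand. The ALD6 window is chrXVI:432338-432637 on the plus strand and the ADH1 window is chrXV:160545-160844 on the minus strand.
ALD6: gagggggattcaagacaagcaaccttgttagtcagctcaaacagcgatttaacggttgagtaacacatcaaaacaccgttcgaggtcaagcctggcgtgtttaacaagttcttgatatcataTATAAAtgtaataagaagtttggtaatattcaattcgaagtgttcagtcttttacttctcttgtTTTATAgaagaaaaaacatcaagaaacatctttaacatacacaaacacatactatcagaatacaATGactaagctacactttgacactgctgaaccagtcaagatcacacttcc
ADH1: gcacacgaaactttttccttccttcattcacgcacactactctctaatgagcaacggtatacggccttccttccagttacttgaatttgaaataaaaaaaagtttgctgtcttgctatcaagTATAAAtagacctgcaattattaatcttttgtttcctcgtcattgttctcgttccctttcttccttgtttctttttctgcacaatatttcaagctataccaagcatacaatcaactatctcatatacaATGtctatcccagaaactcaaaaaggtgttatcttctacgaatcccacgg
Both genes hold TATAAA 128 bases before the start codon, and ALD6 holds a second match on the opposite strand, printed as TTTATA, 64 bases before it. A match was present in the windows of 7 of the 10 genes and in 45.2% of 6001 such windows genome-wide. PDC5, ALD5 and ACS2 held none.

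Members of the same isozyme group share coding sequence, and a read from a stretch that is identical in 2 genes cannot be placed on 1 of them. Identity of the coding DNA was 87.2% between PDC1 and PDC5, 75.0% between PDC1 and PDC6 and 73.5% between PDC5 and PDC6. It was 88.8% between ADH1 and ADH2, 75.4% between ADH1 and ADH3 and 74.3% between ADH2 and ADH3. Among the ALD genes it lay between 60.3% for ALD5 with ALD6 and 65.2% for ALD4 with ALD5. The longest identical run of all these pairs was 189 bases, from base 193 of both ADH1 and ADH2, at chrXV:160214-160402 and chrXIII:873957-874145 (minus strand in both). It is printed in full because reads that lie wholly inside it fit both genes.
ADH1 and ADH2: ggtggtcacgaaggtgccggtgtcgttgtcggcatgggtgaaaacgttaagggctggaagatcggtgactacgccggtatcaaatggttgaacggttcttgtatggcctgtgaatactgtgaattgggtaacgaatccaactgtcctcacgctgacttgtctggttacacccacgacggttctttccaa
Of the 948 windows of 100 bases in ADH1, 90 (9.49%) occur a second time in the genome, all in the positions that ADH2 shares. No window of 100 bases in any of the other 8 genes occurs elsewhere. ALD6 therefore has no repeated stretch of that length.

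An ORF counted as occupied where peaks covered 50% or more of it. In each of the 4 lists 5 of the 10 genes were occupied, beside 19.9%, 17.3%, 16.9% and 12.7% of all ORFs. The 5 were the same in every list, namely PDC1, ADH1, ADH3, ALD5 and ALD6, and each was covered over its whole length (100%). Occupied in all 4 lists were 10.8% of all ORFs. ALD4 and ACS2 were touched by a peak in every list but occupied in none, as were 305 (25.4%) of the 1202 ORFs touched in all lists. PDC5, PDC6 and ADH2 were touched in no list, like 60.2% of all ORFs. None of the 10 genes was occupied in the lists of 1 strain alone. Genome-wide 1.73% of ORFs were occupied in both HA lists and neither K60,61R list, and 0.15% in the opposite way.

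**Figure D1:**
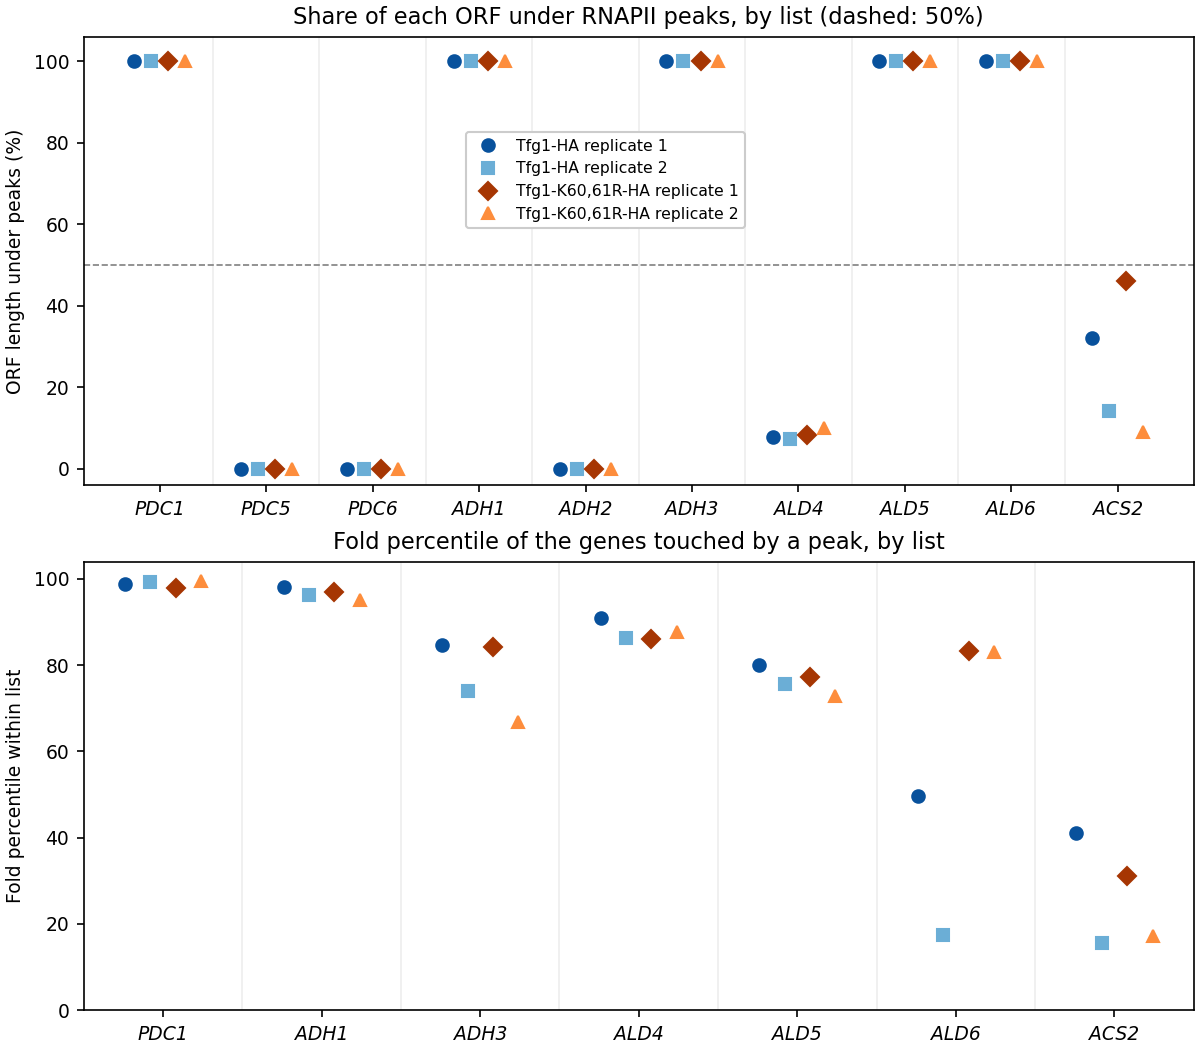
Upper panel, the share of each ORF's length under RNAPII peaks (percent) in the 4 lists, with a dashed line at 50%. Lower panel, the percentile of the fold of the 7 genes touched by a peak among all ORFs touched in the same list. Each point is 1 list. Coverage was 100% or 0 for 8 genes, and the percentile of ALD6 was 83.3 and 83.1 in the K60,61R lists and 49.8 and 17.4 in the HA lists.

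The strength of a peak is its deposited fold, the enrichment of immunoprecipitated over input-derived signal averaged over the peak. It was ranked within each list, and the fold percentile of an ORF is the share of the ORFs touched in that list that had a lower fold, with ties shared evenly, so that 100 is the top. PDC1 held the first place among the 7 touched genes in every list, ADH1 the second, ALD4 the third and ACS2 the last. ADH3 and ALD5 changed places between lists, and their group means, 79.4 ± 7.53 and 77.9 ± 3.14 in HA (SD, n = 2), differed by less than their spread. ALD6 was in place 6 in both HA lists, in place 5 in K60,61R replicate 1 and in place 4 in K60,61R replicate 2. The fold is an average over a whole peak, so for PDC1, ADH1, ALD4 and ALD5 it also includes neighbouring ORFs.

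PDC1, which encodes the main pyruvate decarboxylase of fermenting yeast, was under one of the strongest peaks of every list. Its fold was 9.97, 10.9, 9.33 and 11.0, at percentiles of 98.8, 99.2, 97.9 and 99.6. It ranked 16 of 1193, 9 of 1041, 32 of 1015 and 4 of 762 among the occupied ORFs. The highest and the lowest of these values both came from the K60,61R lists, and the groups overlapped, at mean percentiles of 99.0 ± 0.306 and 98.7 ± 1.2 (SD, n = 2 each).

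The PDC1 peak was 4383, 3932, 3558 and 4324 bases wide and continued beyond the gene on both sides. It began 1669, 1248, 901 and 1705 bases before the start codon and ended 1022, 992, 965 and 927 bases past the end of the coding sequence. Past the end it covered the whole of TRX1, a thioredoxin gene on the same strand that lies 376 bases away, in all 4 lists. Before the start it reached STU2, a microtubule-associated protein gene, over 26.8%, 11.0% and 28.1% of its length in the lists other than K60,61R replicate 1, which stopped 901 bases out. The upstream edge of the PDC1 peak therefore varied more within each strain than between the strain means of 1458.5 ± 298 and 1303 ± 569 bases. The downstream edge was nearer to the gene in both K60,61R lists, as it was for 31.8% of the 651 ORFs occupied in all lists.

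PDC5 encodes a second pyruvate decarboxylase, known to rise when PDC1 is lost, and PDC6 a minor isozyme. Neither had any base of its ORF or of its start window under a peak in any list. The nearest ORFs were CKI1, 529 bases upstream of PDC5, and PIL1, 672 bases downstream of PDC6. PDC5 shares up to 65 identical bases in a row with PDC1, at chrXII:411068-411132 and chrXII:233672-233736. The absence of a peak says that the signal did not pass the threshold of the caller in these libraries, and not that RNAPII was absent.

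ADH1 encodes the principal alcohol dehydrogenase of fermentation and was the second of the 7 genes in every list. Its fold was 8.63, 6.74, 8.81 and 5.67, at percentiles of 98.1, 96.3, 97.0 and 95.2. In both strains replicate 1 was the higher list, and the groups overlapped, at 97.2 ± 1.31 and 96.1 ± 1.28 (SD, n = 2 each). The −log10 p of the peak was 629, 412, 1075 and 245, also higher in replicate 1 of each strain.

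The ADH1 peak had almost the same extent in all lists, with widths of 2537, 2472, 2541 and 2414 bases. It began 1048, 1012, 1047 and 992 bases before the start codon and thus stopped short of the next ORF upstream, YOL085C, which lies 1078 bases away. It ended 442, 413, 447 and 375 bases past the end and covered in every list the whole of MHF1, a short ORF on the opposite strand 102 bases from ADH1. The reads of a ChIP library do not tell the strands apart, so signal over MHF1 cannot be assigned to it. The start window of ADH1 printed above was covered over 100% in every list.

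The ADH1 peak began about as far out as the length of the whole ORF. After the peak edges had been seen, the distal region was therefore searched for the core of the site bound by Zap1. Zap1 is a zinc-responsive regulator known to act at ADH1. The core CCTTNAAGG was found in the 1200 bases before the start codon of 130 (2.17%) of 5996 ORFs on either strand, and among the 10 genes before ADH1 alone. This match lies 1005 bases before the start codon, at chrXV:161581-161609 on the minus strand with 10 flanking bases on each side, and is shown in capitals because the peak edges fell next to it.
ADH1 distal site: gcgaccatgaCCTTGAAGGtgagacgcgc
The site was under the peak in both HA lists and in K60,61R replicate 1 and outside it in K60,61R replicate 2, whose edge was at 992 bases. Whether Zap1 was bound there was not measured.

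ADH2 encodes the alcohol dehydrogenase that consumes ethanol and is repressed by glucose. It was under no peak in any list, in its ORF or its start window, although 9.49% of its windows of 100 bases are identical to ADH1, the second strongest of these genes. The alignment of reads that fit both genes could not be examined from the lists, and the part of such reads in the ADH1 peak was not tested.

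ADH3 encodes the mitochondrial alcohol dehydrogenase and was under a moderate peak of its own. Its fold was 3.24, 2.52, 2.91 and 1.93, at percentiles of 84.7, 74.1, 84.2 and 66.9, with replicate 1 the higher list of each strain. The groups overlapped, at 79.4 ± 7.53 and 75.5 ± 12.3 (SD, n = 2 each). The peak was 2046 to 2171 bases wide, touched no other ORF and ended 311, 268, 310 and 270 bases past the coding sequence. It began 732, 719, 703 and 648 bases before the start codon. Both K60,61R lists thus stopped nearer to the gene, by a mean of 50 bases, with 725.5 ± 9.19 bases in HA and 675.5 ± 38.9 in K60,61R. Among all ORFs occupied in the 4 lists 65.1% had an upstream edge nearer to the gene in both K60,61R lists, so ADH3 was in the larger share. At PDC1, ADH1 and ALD5 the upstream edges of the strains overlapped.

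**Figure D2:**
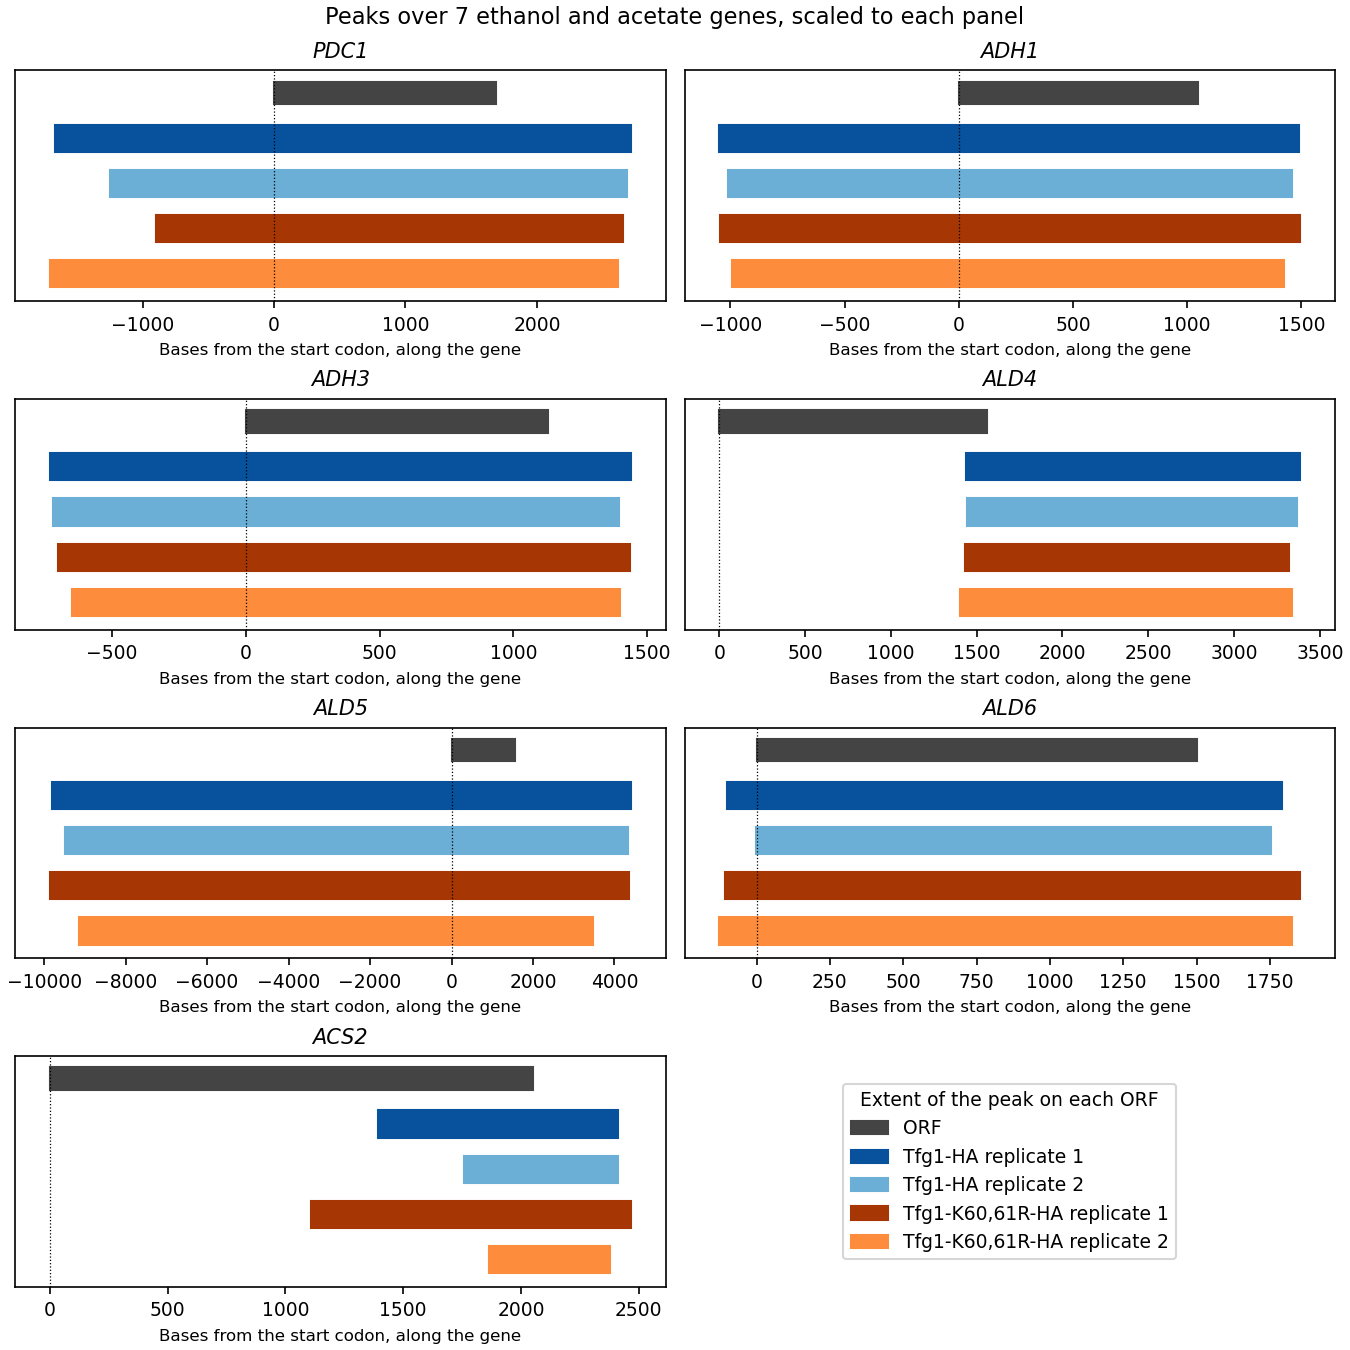
Extent of the peak on each of the 7 touched genes in the 4 lists, in bases from the start codon along the gene, with the ORF as a dark bar and the start codon as a dotted line. Each panel has its own scale. The peaks of PDC1, ADH1, ADH3 and ALD5 began 648 bases or more before the start codon, those of ALD6 between 1 and 127 bases before it, and those of ALD4 and ACS2 inside the ORF.

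ALD6 encodes the cytosolic aldehyde dehydrogenase that uses NADP+, the main source of cytosolic acetate in glucose-grown cells and a source of NADPH. It was occupied in every list, and its peak stood high in both K60,61R lists and lower in both HA lists. Its fold was 1.67, 1.34, 2.86 and 2.64, or 1.50 ± 0.229 in HA and 2.75 ± 0.156 in K60,61R (SD, n = 2 each). The fold percentile was 49.8, 17.4, 83.3 and 83.1, or 33.6 ± 22.9 against 83.2 ± 0.119, a difference of 49.6 points. The −log10 p of the peak was 12.9, 4.15, 109 and 45.1. On all 3 measures both K60,61R lists lay above both HA lists.

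The position of ALD6 among occupied ORFs changed in the same way. It ranked 739 of 1193 and 939 of 1041 in the HA lists, and 227 of 1015 and 169 of 762 in the K60,61R lists. The 2 K60,61R lists were within 1 point of each other in percentile, while the 2 HA lists were far apart. Without HA replicate 2 the difference in percentile was 33.4 points and without HA replicate 1 it was 65.8 points. It was 49.6 and 49.7 points without K60,61R replicate 1 and replicate 2. If the lists labelled HA replicate 2 and K60,61R replicate 1 were exchanged, as the case of their names would have it, the groups would be 49.8 and 83.3 against 17.4 and 83.1. They would then overlap, and the difference would turn to −16.3 points. Within these lists the direction of the ALD6 difference therefore rests on the labels. Measurements of the study outside the lists are not given here.

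The rule that chose ALD6 drew on this contrast, so the place of ALD6 in it is a description. Among the 1202 ORFs touched in all 4 lists the difference in percentile had a median of −4.21 points, with quartiles of −12.0 and 0.121, and ran from −88.6 to 49.6. ALD6 held the highest value, which 1 of 1202 ORFs (0.0832%) thus reached. The fold percentile was higher in both K60,61R lists for 116 (9.65%) of these ORFs and lower in both for 528 (43.9%), the fold was higher in both for 4.08% and lower in both for 60.1%, and the −log10 p was higher in both for 3.74%. The other 6 touched genes of the pathway all lay between −4.12 and −0.29 points, with PDC1 at −0.29, ADH1 at −1.04, ALD4 at −1.80, ALD5 at −2.75, ADH3 at −3.84 and ACS2 at −4.12. Over the 7 genes the median was −1.80, and 1 of the 7 was above 0 beside 320 of the 1202. A low negative value was thus usual for ORFs in these lists, each of which ranked a different number of ORFs. A ranking only among the ORFs touched in all lists was chosen after the data were seen. With it ADH3, ALD5 and ACS2 turned to 0.333, 1.77 and 2.87 points. PDC1, ADH1 and ALD4 stayed negative, at −0.291, −0.707 and −0.333 points.

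**Figure D3:**
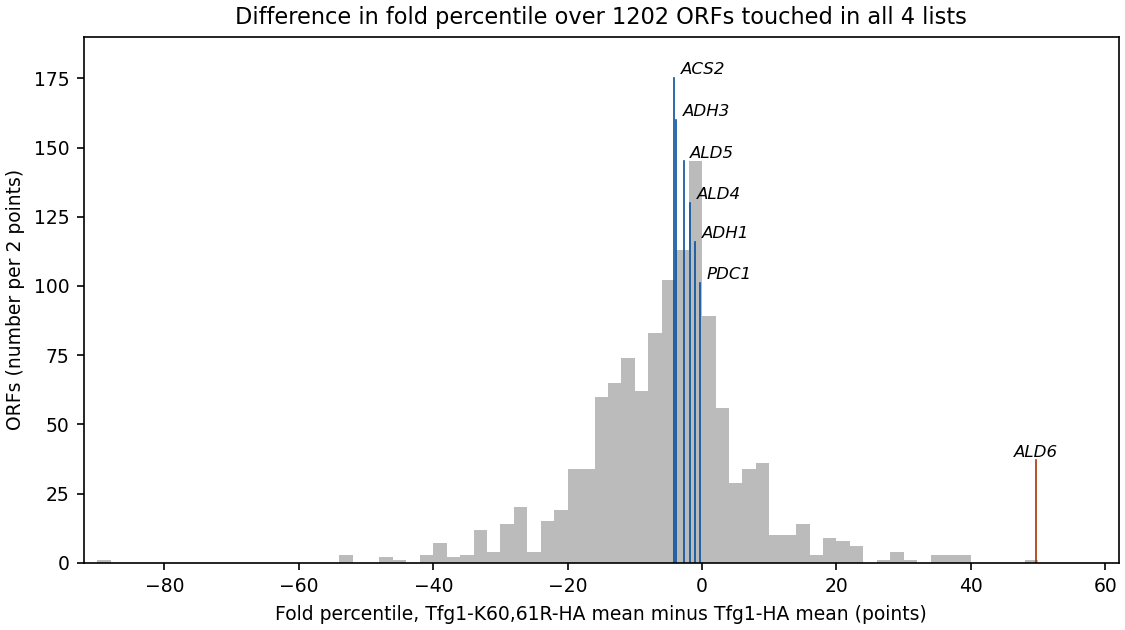
Difference in fold percentile, the mean of the K60,61R lists minus the mean of the HA lists (points), over the 1202 ORFs touched in all 4 lists, as a histogram of ORFs per 2 points. Lines mark the 7 genes, and their heights carry no value. ALD6 lies at 49.6 points, at the right end, and the other 6 genes lie between −4.12 and −0.29, beside the median of −4.21.

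The ALD6 peak also differed in extent. It was 1893, 1755, 1962 and 1952 bases wide and touched no other ORF in any list, although YPL062W lies only 288 bases upstream and MFM1 432 bases downstream. It began 100, 1, 109 and 127 bases before the start codon, or 50.5 ± 70.0 bases in HA and 118 ± 12.7 in K60,61R. It ended 290, 251, 350 and 322 bases past the coding sequence, or 270.5 ± 27.6 and 336 ± 19.8 bases. The edges of both K60,61R lists lay outside those of both HA lists on each side. A peak reached further on both sides in both K60,61R lists for 0.768% of the 651 ORFs occupied in all lists, further before the start for 2.92% and further past the end for 8.45%. Extent and fold come from the same peak call and are not independent measures. The place of ALD6 in these shares is a description too. With the 2 lists exchanged, the differences of 67.5 bases before the start and 65.5 bases past the end would turn to −40.5 and −33.5 bases and the groups would overlap.

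The edges can be read against the ALD6 sequence printed above. In all 4 lists the peak began after the first base of the TATAAA match that lies 128 bases before the start codon. The match 64 bases before the start codon was under the peak in 3 lists and outside it in HA replicate 2, whose peak began at the base before the start codon. Of the start window as a whole 50%, 17%, 53% and 59% lay under the peak. Among the 651 ORFs occupied in all lists, 217 (33.3%) had less than 75% of this window covered in every list, and 339 (52.1%) had at least 50% covered in every list, as did 8.3% of all ORFs. The same window was covered over 100% in every list at PDC1, ADH1, ADH3 and ALD5.

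ALD6 and ADH3 were alone under their peaks, as was ACS2, which was not occupied. No other ORF lay under these peaks, but signal spreading from nearby genes could not be separated. Of the 651 ORFs occupied in all lists 80 (12.3%) were alone in this sense. Their fold percentile was higher in both K60,61R lists in 5 of 80 (6.25%), of which ALD6 was 1. Of the 80, 1 (1.25%) had a peak that reached further on both sides in both K60,61R lists, and it was ALD6. ALD6 was chosen with results of these lists known, so its place among the 80 is a description. ADH3, alone under its peak as well, had overlapping groups in percentile.

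When peaks below a fold of 2 were dropped, ALD6 was left in both K60,61R lists and in neither HA list, which its folds given above fix, and with the 2 lists exchanged it would be left in 1 list of each strain. Over all ORFs 2 of 6002 (0.0333%) were then occupied in the K60,61R lists only, ALD6 and HXT6, and 109 (1.82%) in the HA lists only. Nothing is read from the place of ALD6 among them. PDC1, ADH1 and ALD5 stayed occupied in all 4 lists, and ADH3 was lost from K60,61R replicate 2, where its fold was 1.93. The occupied genes then numbered 4, 4, 5 and 4 of 10.

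The 5 ORFs whose fold percentiles over the 4 lists were nearest to those of ALD6 were found by the sum of the absolute differences, among ORFs occupied in all lists. RTC3, a gene of unsettled function, was the nearest, with percentiles of 63.1, 21.5, 83.4 and 75.1 and a sum of 25.6 points. RGI1, linked to energy metabolism, had 64.8, 12.7, 89.3 and 66.1. HXK1, a hexokinase gene, had 70.8, 31.7, 94.3 and 77.9. DDR48, a stress-induced gene, had 58.8, 26.6, 78.6 and 54.1, and its groups overlapped. IES5, a gene of the INO80 chromatin remodeller, had 49.5, 43.2, 59.5 and 75.9. They were chosen for being near to ALD6 in these same values, so a like order of the lists follows largely from the choice. In all 5, as in ALD6, HA replicate 2 was the lowest list. In the first 4 K60,61R replicate 1 was the highest list, and in IES5 it was K60,61R replicate 2. RGI1 was alone under its peak in every list. The RTC3 peak also lay over other ORFs in all lists but HA replicate 2, and the peaks of HXK1, DDR48 and IES5 did so in every list, so these percentiles are not those of the named gene alone.

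**Figure D4:**
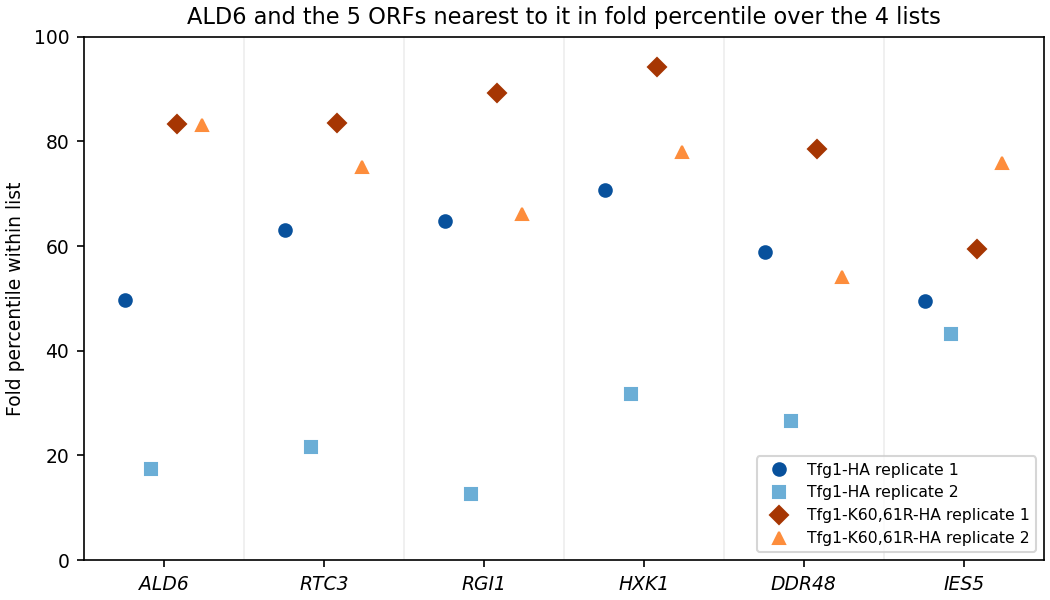
Fold percentile within each list (0 to 100) for ALD6 and the 5 ORFs nearest to it over the 4 lists. Each point is 1 list. In every one of the 6 ORFs HA replicate 2 is the lowest point, and ALD6 has the 2 K60,61R lists at 83.3 and 83.1. The 5 were chosen for being near to ALD6 in these values, so their likeness to it follows largely from the choice.

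ALD4, which encodes the main mitochondrial aldehyde dehydrogenase and is repressed by glucose, was touched only at its end. The peak started 1438, 1444, 1430 and 1405 bases inside the ORF and covered 7.82%, 7.44%, 8.33% and 9.94% of it. From there it ran 1825, 1807, 1762 and 1776 bases past the end of ALD4, over the whole of GDH1 in every list. GDH1, a glutamate dehydrogenase gene that uses NADPH, lies 278 bases away on the opposite strand. Of each peak no more than 8.03% lay in ALD4. The fold of 4.34, 3.58, 3.05 and 3.04 and the percentiles of 90.9, 86.4, 86.1 and 87.6 are thus mostly values of the GDH1 region. The fold was lower in both K60,61R lists, as for 60.1% of ORFs touched in all lists, and the percentiles overlapped. Both edges and the coverage of ALD4 also did not overlap, with 7.63 ± 0.272% covered in HA and 9.13 ± 1.13% in K60,61R. Nothing of the ALD4 start window was under a peak.

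ALD5 encodes a further mitochondrial aldehyde dehydrogenase, and its coverage was part of a peak that spanned a whole neighbourhood. The peak was 14210, 13820, 14203 and 12623 bases wide, and ALD5 made up 11.0%, 11.3%, 11.0% and 12.4% of it. In every list it also covered the whole of ARG56 (arginine synthesis), RNR1 (ribonucleotide reductase), TDA2, VTC1 (a vacuolar transporter chaperone) and RPS24A (a ribosomal protein). YOS1 was covered as well in the 3 lists other than K60,61R replicate 2. The fold, an average over all of these, was 2.83, 2.60, 2.46 and 2.09, at percentiles of 80.1, 75.6, 77.3 and 73.0. The fold was lower in both K60,61R lists and the percentiles overlapped, at 77.9 ± 3.14 and 75.1 ± 3.03. Signal from ALD5 itself could not be separated from that of its neighbours.

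ACS2 encodes the acetyl-CoA synthetase that cells need on glucose, and carried a weak peak over the end of its ORF. Coverage was 32.2%, 14.2%, 46.1% and 9.06%, with the peak starting 1391, 1760, 1107 and 1866 bases inside the ORF. It ended 359, 358, 414 and 326 bases past the coding sequence and touched no other ORF. The fold was 1.52, 1.33, 1.37 and 1.34 and the percentile 41.0, 15.5, 31.1 and 17.2. In each strain replicate 1 had the wider peak and the higher percentile, and the groups overlapped on every measure, at percentiles of 28.3 ± 18.1 and 24.1 ± 9.88 (SD, n = 2 each). The difference between replicates of ACS2 was larger than that between strains.

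The exchange of the 2 lists whose names and labels disagree also changed which groups overlapped at the other 6 touched genes. As labelled, their fold percentiles overlapped at all 6. After the exchange they overlapped at ALD4 alone. The K60,61R group was then lower at ADH1, ADH3, ALD5 and ACS2, with differences of −1.83, −14.0, −4.36 and −19.8 points, and higher at PDC1, with 1.07 points. Of the 1202 ORFs touched in all lists 28% were lower in both lists and 2.25% higher in both under this grouping. It sets the lists labelled replicate 1 against those labelled replicate 2. Whether these differences belong to strain or to replicate cannot be told apart. Some groups at these genes did not overlap as labelled. They were in the downstream edge of PDC1, the upstream edge of ADH3, both edges and the coverage of ALD4, and the folds of ALD4 and ALD5. All of them overlapped after the exchange.

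Within the ALD and ACS genes the 3 extents were unlike each other. ALD6 was covered from its start codon to past its end, ACS2 over its last part alone, and ALD4 over its last bases from the side of the neighbouring gene. Only ALD6 of the 3 ALD genes was alone under its peak.

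The same windows were searched on either strand for 3 further motifs. CTTCC, the core bound by the glycolytic activator Gcr1, was in 5 of the 10 windows and in 46.4% of all, with 4 matches before ADH1. CCCCT, the stress response element, was in those of ALD4 and ALD6 and in 21.6% of all, and the ALD6 match lies 249 bases before the start codon, outside the peak in every list. CCCNNACA, a core of the Rap1 site, was in none of the 10 and in 6.65% of all. The region further upstream than these windows was not searched for the 3 motifs, so a gene without a match may hold a site there.

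A further 41 genes of the surrounding metabolism and its regulators, listed from textbook knowledge, gave the setting of these values. They were occupied in 8, 7, 8 and 7 cases, 6 of them in all lists, and 26 had no peak in any list. The shares of all ORFs given above for each list are the background. Among 12 other ethanol and acetate genes ADH4, a further alcohol dehydrogenase gene, was covered over 100% in every list at percentiles of 94.3, 97.4, 96.5 and 95.9, and 9 had no peak. ADH6, an alcohol dehydrogenase gene that uses NADPH, was covered over 95.2%, 0, 100% and 100%, and ALD3, a stress-induced aldehyde dehydrogenase gene, over 100% in K60,61R replicate 1 alone. Among 10 genes of the other fates of pyruvate, MPC2, a subunit of the mitochondrial pyruvate carrier, was occupied in all lists at percentiles of 84.6, 78.1, 83.7 and 77.4. Peaks over the 41 genes may also lie over neighbouring ORFs, so the percentiles of these genes may not be theirs alone.

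Since ALD6 also supplies NADPH, 9 genes of NADPH supply were set beside it. GND1, TKL1 and TAL1 of the pentose phosphate pathway were occupied in all lists. GND1, 6-phosphogluconate dehydrogenase, was at percentiles of 39.2, 32.8, 46.8 and 23.8, TKL1, transketolase, at 57.6, 55.3, 52.3 and 44.4, and TAL1, transaldolase, at 96.0, 95.9, 95.2 and 94.3. The last 2 were lower in both K60,61R lists, as 43.9% of the ORFs touched in all lists were, and GND1 overlapped. Neighbouring ORFs under the same peaks may contribute to these percentiles too. MAE1, the mitochondrial malic enzyme, was covered over 93.2% and 95.5% in the HA lists and not at all in the others, in the direction of 1.73% of ORFs, and with the 2 lists exchanged it would be occupied in 1 list of each strain. Of the 41 genes 0 were occupied in the K60,61R lists alone. Of 10 regulators, GCR1 was occupied in all lists and 7 had no peak.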

How the data were processed

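RNAPII ChIP-seq libraries of a Tfg1-HA strain (HA) and of its lysine mutant Tfg1-K60,61R-HA (K60,61R) were analysed. The authors trimmed reads with TrimGalore, aligned them to sacCer3 with Bowtie2 (version 2.3.5.1) and called broad peaks with MACS2 (version 2.2.7.1) in each library against its input, at a q-value limit of 0.1, so replicates were not pooled. The deposited lists give for each peak a fold, the ratio of immunoprecipitated to input-derived signal, used here within a list. The deposited −log10 p-values were used to rank peaks, and the lowest deposited −log10 q-value was 1.05. The lists hold no reads, so the depth that each library reached and its precision are unknown and the differential binding test of the study was not run. The 4 input libraries have no list here.

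The list of K60,61R replicate 1 came with 1992 rows. Of these, 894 were identical to the list of replicate 2 and were removed, leaving 1098. Samples were grouped by their labels.

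Overlaps with R64 ORFs, overlap-weighted folds, percentiles and edges were computed in Python (version 3.11.15, numpy 2.4.6, pandas 2.3.3). ORFs touched by at least 1 base of a peak entered percentiles. Overlap code was tested on simulated peaks. The genes and lists were chosen with earlier results of these data known. Named beside the 10 genes are ORFs that their peaks cover over at least 50%, genes of the textbook lists occupied in all lists or those of 1 strain only, and the 5 ORFs nearest to ALD6 in percentile. Other ORFs were named after their values were seen. Values are means ± SD of 2 lists. Alternatives were other peak sets, other percentiles, the exchange of 2 lists and each list left out.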

Additional observations from a re-analysis of the deposited data

How the results depend on the processing

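Of 278 values recomputed under 15 settings, 255 stayed within the spread between replicates or, for the count of occupied genes, within a factor of 1.5, while 20 moved by more and 3 reversed. Reversed means a changed sign where the groups as labelled did not overlap. A changed sign where they overlapped was counted among the values that stayed or moved. The PDC1 percentile difference, for example, turned from −0.29 to 1.07 points with the 2 lists exchanged and was counted as moved. Part of the values that stayed had no room to move. The coverage differences of PDC1, PDC5, PDC6, ADH1, ADH2 and ALD5 were 0 under every setting. A peak that was kept also had the same edges when weaker peaks were dropped. Settings that left no value were not counted, so these counts do not measure robustness. All 3 reversed values belong to ALD6 with HA replicate 2 and K60,61R replicate 1 exchanged. The difference in fold percentile then changed from 49.6 to −16.3 points, the difference before the start from 67.5 to −40.5 bases and the difference past the end from 65.5 to −33.5 bases. Under the other settings the ALD6 percentile difference lay between 44.2 (percentile among peaks) and 62.6 (894 peaks in every list). This range includes a percentile among the ORFs touched in all lists, which was chosen after seeing the data (61.7). Where weaker peaks than a fold of 2 were dropped, no percentile difference could be computed, because ALD6 had no such peak in HA, and 3 in place of 5 of the 10 genes were occupied in all lists. Counting any overlap gave 7. Leaving out each list in turn gave 33.4 to 65.8 points, 18 to 117 bases before the start and 46 to 85 bases past the end, with the lowest without HA replicate 2 and the highest without HA replicate 1, and 5 to 5 genes occupied in all remaining lists. The difference of ALD5, −2.75 points, was 0.46 with 894 peaks in every list and 1.77 among the ORFs touched in all lists. Among the latter ORFs those of ADH3 and ACS2 also changed sign, to 0.333 and 2.87 points, within the spread between replicates. No paired analysis was possible because no test was run and no label ties the libraries of 1 replicate number together. As values, K60,61R minus HA within replicate 1 and within replicate 2 was 33.5 and 65.8 points for ALD6, −1.06 and −1.02 for ADH1, −0.48 and −7.19 for ADH3 and −2.83 and −2.67 for ALD5, and differed in sign between the numbers for the other 3 touched genes. Without read counts no interval for depth can be given, and a signal below the limit of the peak caller was not measured.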
